A study of Mus musculus with 10 samples.

Results

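Runx1, Fli1, Erg, Gfi1, Gfi1b, Myb, Ikzf1, Hhex, Etv6 and Nfe2 encode 10 transcription factors of the blood lineage that are placed downstream of SCL (TAL1). They were taken by name from the GENCODE M1 annotation of the mouse genome mm9, in which 22359 protein-coding genes were tested. The histone marks at these genes were compared between mCherry+ cells sorted from day 4 embryoid bodies (EBs, aggregates of differentiating embryonic stem cells) of 2 genotypes. WT cells (Scl:mCherry, labelled Scl wt) are a line made from J1 embryonic stem cells in which 1 Scl allele carries an mCherry reporter and SCL remains functional. Delta cells (Scl Δ/Δ:mCherry, labelled Scl d/d) are a clone derived from that line with the bHLH region of Scl deleted on both alleles, so that both groups carry the reporter. Each of 4 marks, H3K4me3, H3K27ac, H3K27me3 and H2AK119ub, was measured by ChIP-seq with a Drosophila spike-in in 1 library per genotype, and 2 input libraries have no peak list of their own. The deposited files are 8 lists of broad peaks, in which 69 of the 70826 peaks lay within 2500 bp of a protein-coding transcription start site (TSS) of these genes or overlapped the gene body. With 1 library per group there is no replicate check and no test, and every difference below is between 2 libraries.

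SCL is a basic helix-loop-helix factor that sits, with E proteins, LMO2, LDB1 and GATA factors, in a complex that recognises an E-box and a GATA motif spaced a short distance apart. It acts before the blood programme is established, and the factors studied here take over as blood and endothelial cells separate from mesoderm. H3K4me3 marks promoters at which transcription starts, H3K27ac marks active promoters and enhancers, and H3K27me3 and H2AK119ub are laid down by the Polycomb complexes PRC2 and PRC1. A promoter that carries both H3K4me3 and H3K27me3 is called bivalent, a state common at developmental genes that are silent or not yet fully active.

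The lists held between 2388 peaks (H2AK119ub in Delta) and 16038 peaks (H3K4me3 in WT), each called at a q value of at most 0.05 against the input of the same genotype. The spike-in was not used for calling, so a missing peak says only that the site did not pass in that library. The H2AK119ub lists differed most in size, at 4922 peaks in WT and 2388 in Delta. No peak list covers the deleted region as sequence, so the deletion itself could not be checked here. The markers of FLK1+ blood-fated mesoderm Kdr, Tal1, Lmo2 and Etv2 all had H3K4me3 at a TSS in both genotypes, while the pluripotency gene Nanog and the endoderm gene Afp had no peak of any mark. The pluripotency gene Pou5f1 had H3K4me3 in Delta alone (343 bp) and H2AK119ub in WT alone (1800 bp), with 1654 bp of H3K27me3 in WT against 230 bp in Delta. Among markers of other lineages, Sox2, Pax6, Neurod1, Foxa2 and Sox17 had both H3K4me3 and H3K27me3 at a TSS in both genotypes. In bulk chromatin, a mark carried by fewer cells and a mark carried at a lower level per cell cannot be told apart. Summed H3K4me3 length over the 4 blood-fated markers was 20875 bp (WT) and 14105 bp (Delta). Of this, 9615 bp (WT) and 6458 bp (Delta) lay at Tal1 (Scl), the altered gene whose reporter was used to sort the cells. Over the 3 markers of other mesoderm, Pdgfra, Mesp1 and Tbx6, summed H3K4me3 length came to 4358 bp (WT) and 7555 bp (Delta). At Pdgfra alone the WT peaks measured 3190 bp and the Delta peaks 6018 bp. The part of cell composition in the results below was not tested.

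At the TSS, most of these genes carried both H3K4me3 and H3K27me3, and the call that most often differed between the genotypes was H3K27ac. Gfi1 is annotated in GENCODE M1 as a processed transcript with no protein-coding TSS, so counts at a TSS are out of 9 genes and Gfi1 is described by its gene body. H3K4me3 was called at 9 of 9 genes in WT and 7 of 9 in Delta, where Gfi1b and Nfe2 had none. Of all protein-coding genes, 60.7% were called in WT and 60.3% in Delta, and a call in a single genotype was seen at 1.06% (WT alone) and 0.684% (Delta alone). H3K27ac was called at 5 of 9 genes in WT (Fli1, Erg, Hhex, Etv6 and Nfe2) and at 2 of 9 in Delta (Runx1 and Etv6), beside 19.9% and 22.8% of all genes. Thus 4 of 9 were called in WT alone and 1 in Delta alone, whereas among all genes 3.43% were called in WT alone and 6.37% in Delta alone. H3K27me3 was called at 8 of 9 genes in each genotype, with Nfe2 absent in WT and Etv6 absent in Delta, beside 34.8% of all genes in WT, 32.7% in Delta, 7.04% in WT alone and 4.91% in Delta alone. H2AK119ub was called only at Ikzf1 in WT and at Runx1, Myb and Ikzf1 in Delta. The share of all genes with H2AK119ub was 9.21% in WT and 5% in Delta, with 5.08% in WT alone and 0.863% in Delta alone.

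**Figure D1:**
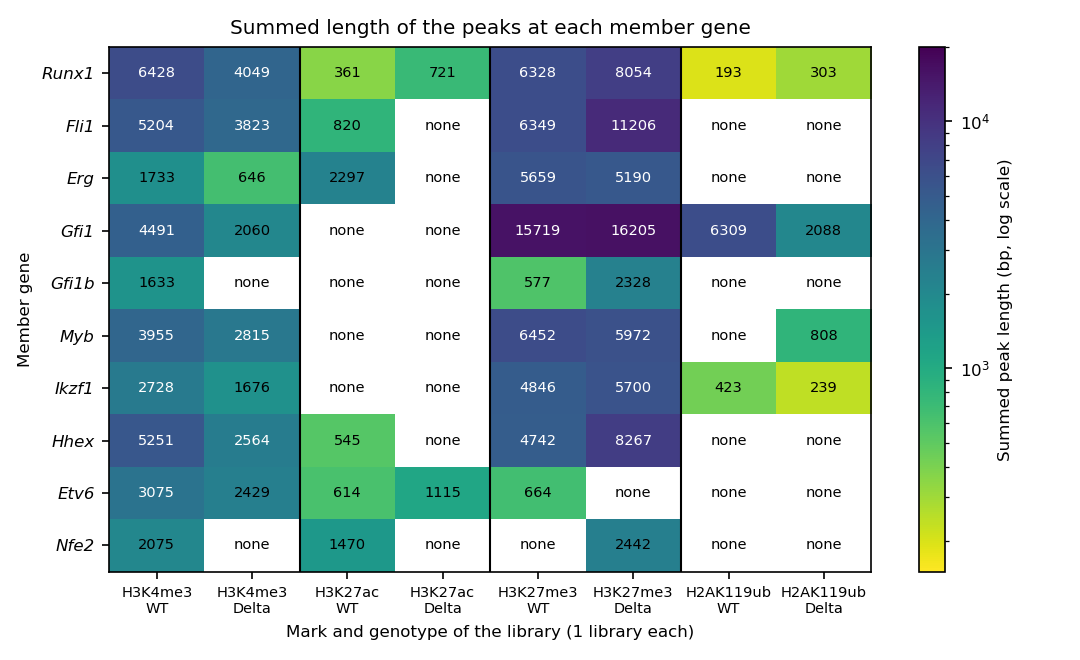
Summed length in bp of the whole peaks at each gene (rows) in each of the 8 libraries (columns), on a log colour scale, with the value in each cell and "none" where no peak met the rule. H3K4me3 was shorter in Delta in every row that has a value in both columns, and H3K27ac was absent in Delta at Fli1, Erg, Hhex and Nfe2.

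H3K4me3 peaks at these genes were shorter in Delta. Summed over the 10 genes, H3K4me3 peaks covered 36.6 kb in WT and 20.1 kb in Delta, a ratio of 0.549, beside 0.908 over all protein-coding genes. Of the 8 genes with H3K4me3 in both genotypes, 8 had shorter peaks in Delta, where 67.3% of all such genes did. The median ratio was 0.622 for these 8 genes and 0.926 for all. Erg, Gfi1 and Hhex had at most 0.5 times the WT length in Delta, 3 of 8 beside 2.98% of all genes. Gfi1b and Nfe2, with no Delta peak, enter neither the count of 8 nor the median. For H3K27ac the summed length was 6.11 kb in WT and 1.84 kb in Delta, a ratio of 0.301 beside 1.11 over all genes. Runx1 and Etv6, the 2 genes with H3K27ac in both genotypes, had longer peaks in Delta. Their median ratio was 1.90 beside 1.02 for all such genes, although the Runx1 peaks lay at different sites. For H2AK119ub the sums were 6.93 kb and 3.44 kb, a ratio of 0.496 beside 0.529, and Gfi1 held most of both. This ratio became 0.846 when peaks within 3000 bp were joined and 0.582 with the TSSs of all transcripts. At a −log10 q of at least 3 it could not be given.

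H3K27me3 peaks, called against input without the spike-in, covered more length in Delta than in WT in sum over these genes. Summed length was 51.3 kb in WT and 65.4 kb in Delta, a ratio of 1.27 beside 1.03 over all genes. Of the 8 genes with H3K27me3 in both genotypes, 6 had longer peaks in Delta (51.6% of all such genes did), with a median ratio of 1.22 beside 1.01. The 6 include Gfi1 at a ratio of 1.03. They also include Runx1, at 1.27 with a 1099-bp Delta peak in the gene body. At its TSSs alone the Runx1 lengths were 6328 bp (WT) and 6955 bp (Delta). Gfi1b alone was at least 2 times as long in Delta, beside 6.30% of all genes. At Fli1 and Hhex, 1 Delta peak ran across 2 WT peaks, 2 of the 7 genes with H3K27me3 at a TSS in both genotypes, where the share of all such genes was 5.02%. The opposite, 1 WT peak across 2 or more Delta peaks, was seen at none of the 7 genes and at 3.57% of all. The shorter WT peak at each gene was weak, with a −log10 q of 2.25 at Fli1 and 2.31 at Hhex. A longer peak here is not a measure of more H3K27me3. On spike-in-scaled signal from these libraries, the study reported lower H3K27me3 in Delta at TSSs genome-wide, with a western blot also lower. It saw this to a lesser extent at genes that SCL activates, and described H3K4me3 and H3K27ac at TSSs as independent of SCL. At sites bound by SCL it reported lower H3K27ac in Delta. For H2AK119ub it reported lower levels in Delta at TSSs genome-wide and by western blot. An H2AK119ub peak called in Delta alone is therefore not a measure of more H2AK119ub.

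**Figure D2:**
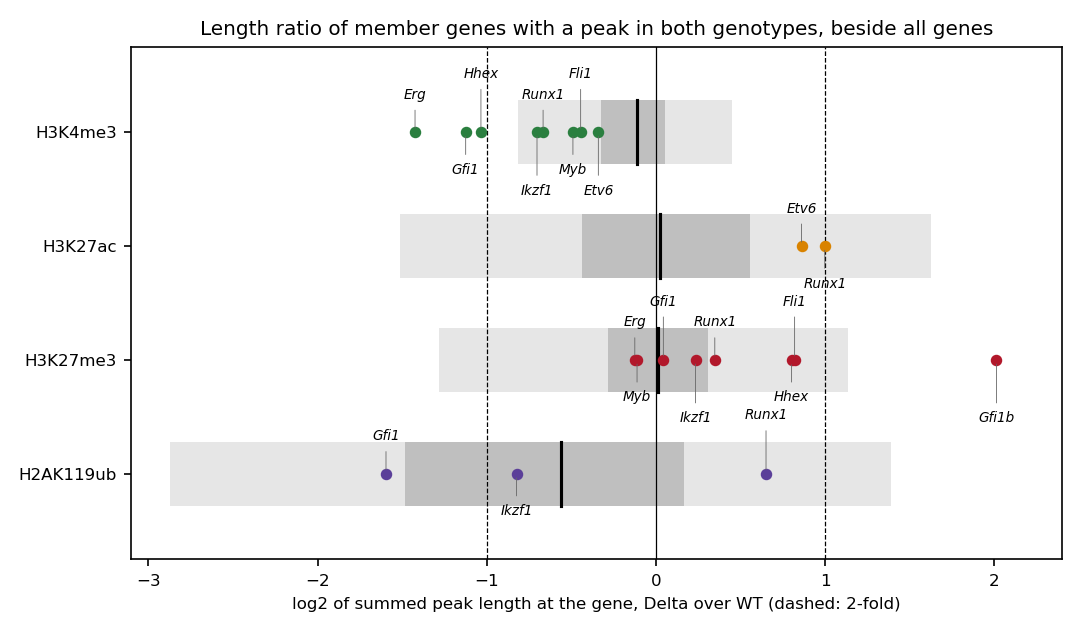
Log2 of the summed peak length in Delta over that in WT (x axis) for each gene with a peak in both genotypes (points), by mark. Grey bars span the middle 50% (dark) and middle 90% (light) of all protein-coding genes and the black line is their median. The 8 points of H3K4me3 all lie below the all-gene median of -0.11, and Gfi1b lies at 2.01 for H3K27me3.

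The strongest peak at each gene was also compared by rank. Fold enrichment here is ChIP over input as written by the peak caller, and since it is not scaled by the spike-in, each peak was placed within its own list, by the share of that list with a lower fold enrichment. The strongest H3K4me3 peak stood lower in the Delta list than in the WT list at 8 of 8 genes, beside 54.5% of all genes with a peak in both, with medians of 60.5% in WT and 37.8% in Delta. At Gfi1, however, the strongest peak was the exonic one in WT (13.8%) and the one at the annotated 5′ end in Delta (11.7%). The 5′-end peak itself stood higher in Delta, above 11.7% of its list beside 8.57% in WT. The strongest H3K27me3 peak stood higher in the Delta list at 6 of 8 genes, beside 46.1% of all such genes, with medians of 63.0% in WT and 87.0% in Delta, and stood lower at Erg and Gfi1. Rank and length did not always move together, since H3K27me3 was longer but lower in rank in Delta at Gfi1 and shorter but higher in rank at Myb.

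**Figure D3:**
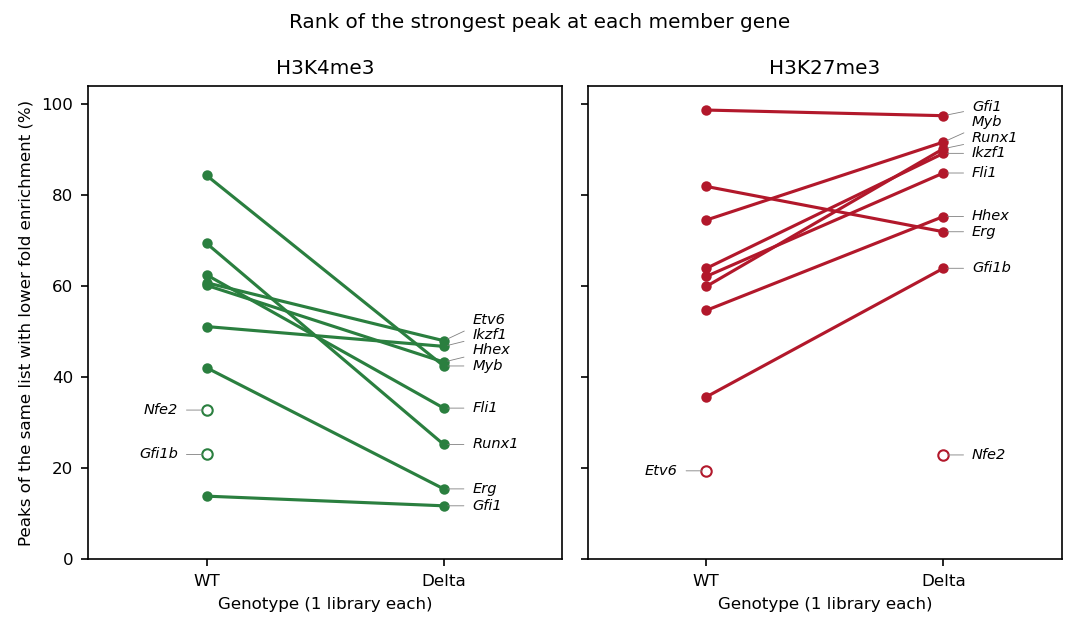
Percent of the peaks in the same list with a lower fold enrichment than the strongest peak at each gene (y axis), in WT and Delta, for H3K4me3 (left) and H3K27me3 (right). Lines join the 2 libraries of a gene, and open circles are genes with a peak in 1 library only. Myb fell from 84.3% to 42.5% for H3K4me3, and Runx1 stood at 59.9% in WT and 90.2% in Delta for H3K27me3.

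Runx1, a runt-domain factor required for blood cells to emerge from endothelium, lies on chromosome 16 at 92601712 to 92826311 on the minus strand and has a distal and a proximal promoter 129 kb apart. The distal promoter had no peak of any mark in either genotype, and all marks at a TSS belonged to the proximal one. There H3K4me3 covered 6428 bp in WT in 1 peak and 4049 bp in Delta in 2 peaks of 3517 and 532 bp. H3K27me3 lay on both sides of the most upstream TSS of the proximal promoter (chr16:92697573) in both genotypes, with a gap of 2328 bp (WT) and 1706 bp (Delta). The peaks beside the gap measured 4043 and 2285 bp in WT and 3562 and 3393 bp in Delta. Fold enrichment at the longer one was 4.02 in WT and 6.83 in Delta. H3K27ac sat in that gap in Delta, in a 721-bp peak between 1247 and 527 bp upstream of the TSS, with a −log10 q of 2.11. In WT the only H3K27ac peak of the gene was 361 bp long and intronic, 18.8 kb upstream of the proximal TSS, with a −log10 q of 1.72. H2AK119ub formed a 303-bp peak 1890 bp upstream of the proximal TSS in Delta, and in WT a 193-bp peak in the intron 15.4 kb downstream of the distal promoter. An H3K27me3 peak of 1099 bp in an exon 89.1 kb beyond the proximal promoter was found in Delta only. Only 5 of the 22359 genes, Runx1 itself among them, had these 8 calls. The H3K27ac and H2AK119ub calls of Delta among them were weak, with −log10 q of 2.11 and 2.15. For the other genes with a TSS such counts ran from 1 (Nfe2) and 66 (Gfi1b) to 779 (Ikzf1). The promoter sequence shown is the 300 bases from 250 before to 50 after the proximal TSS (chr16:92697524-92697823, minus strand, mm9), because H3K27ac was called beside it in Delta and not in WT. In this and the following promoters, read from the same genome 5′ to 3′, capitals mark GATA, ETS core and RUNX core matches as defined further on.
Runx1 proximal promoter: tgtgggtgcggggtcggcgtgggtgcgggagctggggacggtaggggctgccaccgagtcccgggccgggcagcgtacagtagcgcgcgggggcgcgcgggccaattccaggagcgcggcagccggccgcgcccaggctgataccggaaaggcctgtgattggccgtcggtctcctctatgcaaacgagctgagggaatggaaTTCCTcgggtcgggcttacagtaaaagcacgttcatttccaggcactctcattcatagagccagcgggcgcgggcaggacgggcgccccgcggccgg

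**Figure D4:**
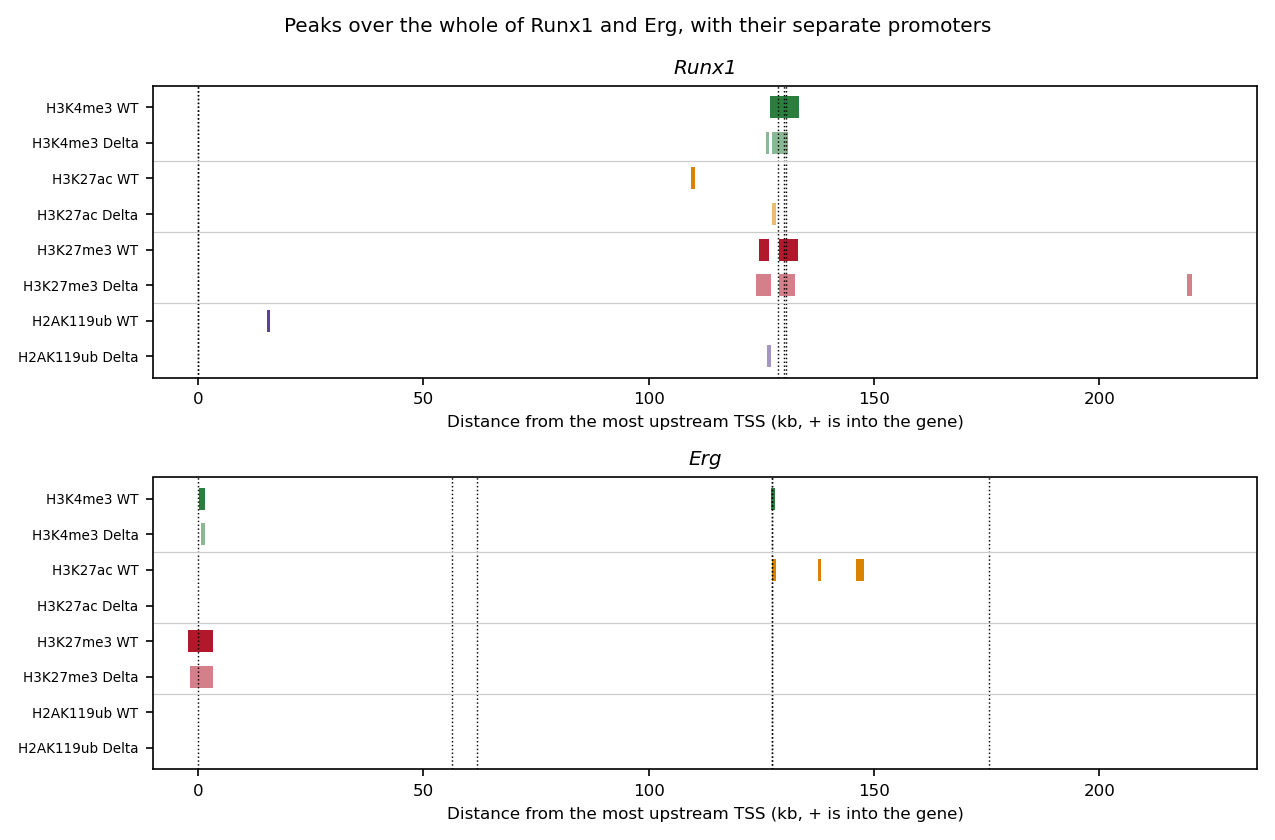
Peaks of the 8 lists over Runx1 (top) and Erg (bottom), by distance in kb from the most upstream TSS, positive into the gene. Full colours are WT, pale colours are Delta and dotted lines are protein-coding TSSs, and short peaks are drawn wider than scale to be visible. The distal Runx1 promoter at 0 kb is empty, and the 3 H3K27ac peaks of Erg are in WT only.

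The ETS factors Fli1, Erg and Etv6 bind GGAA motifs, and Fli1 and Erg act with SCL and GATA2 in early blood and endothelial progenitors. Fli1 lies on chromosome 9 at 32229793 to 32348974 on the minus strand, with 1 TSS. Its H3K4me3 peak measured 5204 bp in WT and 3823 bp in Delta. H3K27me3 in WT formed peaks of 5062 and 1287 bp that left 904 bp free, from 845 bp upstream to 58 bp downstream of the TSS, and this interval lay wholly within H3K4me3. In Delta a single H3K27me3 peak of 11206 bp ran through the TSS. H3K27ac in WT was an 820-bp peak from 70 bp upstream to 749 bp downstream, of which 691 bp also lay in H3K27me3. The nearest Delta H3K27ac peak was 508 kb away. As a result, 58.6% of the H3K4me3 length at the TSS overlapped H3K27me3 in WT and 100% in Delta.

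Erg lies on chromosome 16 at 95580776 to 95808200 on the minus strand, with 6 protein-coding TSSs in 5 separate promoters. The marks divided between promoters. The most upstream promoter (TSS at 95808200) carried H3K4me3 and H3K27me3 in both genotypes and H3K27ac in neither. H3K4me3 there measured 1395 bp (WT) and 646 bp (Delta), and H3K27me3 measured 5659 bp in WT and 5190 bp in Delta. An internal promoter, number 4 of the 5 counted from upstream (TSSs at 95680910 and 95680955) carried no H3K27me3, and its only marks were a 338-bp H3K4me3 peak and a 263-bp H3K27ac peak, both in WT alone. The H3K27ac peak began 430 bp downstream of the TSS and had the highest fold enrichment of the H3K27ac peaks at these genes, 4.90, above 81.1% of its list. Another 2 WT H3K27ac peaks, of 325 and 1709 bp, lay in introns 10.4 and 18.8 kb further into the gene. The other 3 promoters had no peak. The nearest Delta H3K27ac peak to any of the 3 WT peaks was 532 kb away. This internal promoter (chr16:95680861-95681160, minus strand) is shown as the one with a WT-only H3K27ac call.
Erg internal promoter: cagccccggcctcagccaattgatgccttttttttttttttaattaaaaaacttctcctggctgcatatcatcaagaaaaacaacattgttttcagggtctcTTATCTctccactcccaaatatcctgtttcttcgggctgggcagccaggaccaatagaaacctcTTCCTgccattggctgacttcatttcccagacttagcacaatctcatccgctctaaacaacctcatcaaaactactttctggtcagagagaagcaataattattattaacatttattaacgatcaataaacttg

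Etv6, an ETS repressor, differed from the other ETS genes. It lies on chromosome 6 at 133985718 to 134220176 on the plus strand, with 2 promoters, and had marks only at the upstream one. H3K4me3 measured 3075 bp (WT) and 2429 bp (Delta), the ratio nearest to 1 among these genes, at 0.790. H3K27ac was called in both genotypes, at 614 bp in WT and 1115 bp in Delta, although the Delta peak stood lower in its list, above 12.6% of it beside 48.9% in WT by fold enrichment, or 48.1% beside 75.5% by −log10 q. A 664-bp H3K27me3 peak at the TSS, with a −log10 q of 2.23, was present in WT alone, and the nearest Delta H3K27me3 peak was 595 kb away. The promoter (chr6:133985468-133985767, plus strand) is shown as the contrast, with H3K27ac in both genotypes.
Etv6 upstream promoter: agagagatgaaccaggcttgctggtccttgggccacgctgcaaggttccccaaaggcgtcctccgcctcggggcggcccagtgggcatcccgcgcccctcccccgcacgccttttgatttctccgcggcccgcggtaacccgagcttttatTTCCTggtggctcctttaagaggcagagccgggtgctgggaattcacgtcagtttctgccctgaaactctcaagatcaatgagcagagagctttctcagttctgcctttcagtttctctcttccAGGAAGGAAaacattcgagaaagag

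The zinc-finger repressors Gfi1 and Gfi1b act when blood progenitors lose endothelial identity. Gfi1 lies on chromosome 5 at 108145674 to 108155056 on the minus strand and overlaps the lincRNA A430072P03Rik on the other strand at its upstream end. It had the longest H3K27me3 peaks of the 10 genes, 15719 bp in WT and 16205 bp in Delta, covering the whole gene with fold enrichments of 9.20 and 9.24. H2AK119ub formed 4 peaks over the gene in WT, of 959, 999, 3303 and 1048 bp, and 2 in Delta, of 1745 and 343 bp. H3K4me3 was also shorter in Delta, at 4491 bp (WT) and 2060 bp (Delta), and the peak at the annotated 5′ end measured 3925 bp (WT) and 1570 bp (Delta). That peak was weak in both, with a −log10 q of 2.45 in WT and 2.68 in Delta. At a −log10 q of at least 3, Gfi1 had no Delta H3K4me3 peak. The other H3K4me3 peak, in an exon, measured 566 bp in WT and 490 bp in Delta. No H3K27ac was called in either genotype. The ratio of Delta to WT length was 1.03 for H3K27me3, 0.459 for H3K4me3 and 0.331 for H2AK119ub. The log2 ratio for the last was -1.60 and became -0.41 when peaks within 3000 bp were joined. A Delta H2AK119ub peak of 595 bp, 1581 bp upstream of the annotated 5′ end, is not counted. Gfi1 had no TSS window to include it.

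Gfi1b, on chromosome 2 at 28464970 to 28477502 on the minus strand, carried H3K4me3 in WT only, in peaks of 1329 and 304 bp of which the longer covered both TSSs. H3K27me3 was a 577-bp peak (−log10 q of 2.60) inside that H3K4me3 peak in WT and a 2328-bp peak across the TSSs in Delta, a ratio of 4.03, and only 1.42% of all genes with H3K27me3 in both genotypes had a ratio as high or higher. The nearest Delta H3K4me3 peak was 18.6 kb from the WT peak. Neither H3K27ac nor H2AK119ub was called at Gfi1b.

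Nfe2, a bZIP factor of the erythroid and megakaryocytic lineages, had no mark in common between the genotypes. It lies on chromosome 15 at 103078643 to 103088834 on the minus strand, with 10 protein-coding TSSs that join into 1 promoter window. In WT, H3K4me3 formed peaks of 1908 and 167 bp and H3K27ac peaks of 1269 and 201 bp, and H3K27me3 was not called. In Delta the only peak of any of the 4 marks was H3K27me3, 2442 bp long, which spanned the whole of the longer WT H3K4me3 interval, at chr15:103083940-103086381 against chr15:103084144-103086051. It stood low in its list, above 22.9% of it, with a −log10 q of 2.70. The 1269-bp H3K27ac peak lay across the most upstream TSS, from 930 bp before to 338 bp after it. No other gene had the same 8 calls as Nfe2. No TSS of another protein-coding gene lay within 2500 bp of any of the 69 peaks. The promoter at the most upstream TSS (chr15:103088785-103089084, minus strand) is shown for its WT-only H3K27ac.
Nfe2 upstream promoter: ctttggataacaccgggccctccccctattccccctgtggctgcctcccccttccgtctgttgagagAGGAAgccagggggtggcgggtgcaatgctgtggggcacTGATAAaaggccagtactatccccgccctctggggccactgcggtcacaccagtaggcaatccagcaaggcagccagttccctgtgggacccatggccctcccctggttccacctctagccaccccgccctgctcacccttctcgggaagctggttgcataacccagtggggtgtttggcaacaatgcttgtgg

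**Figure D5:**
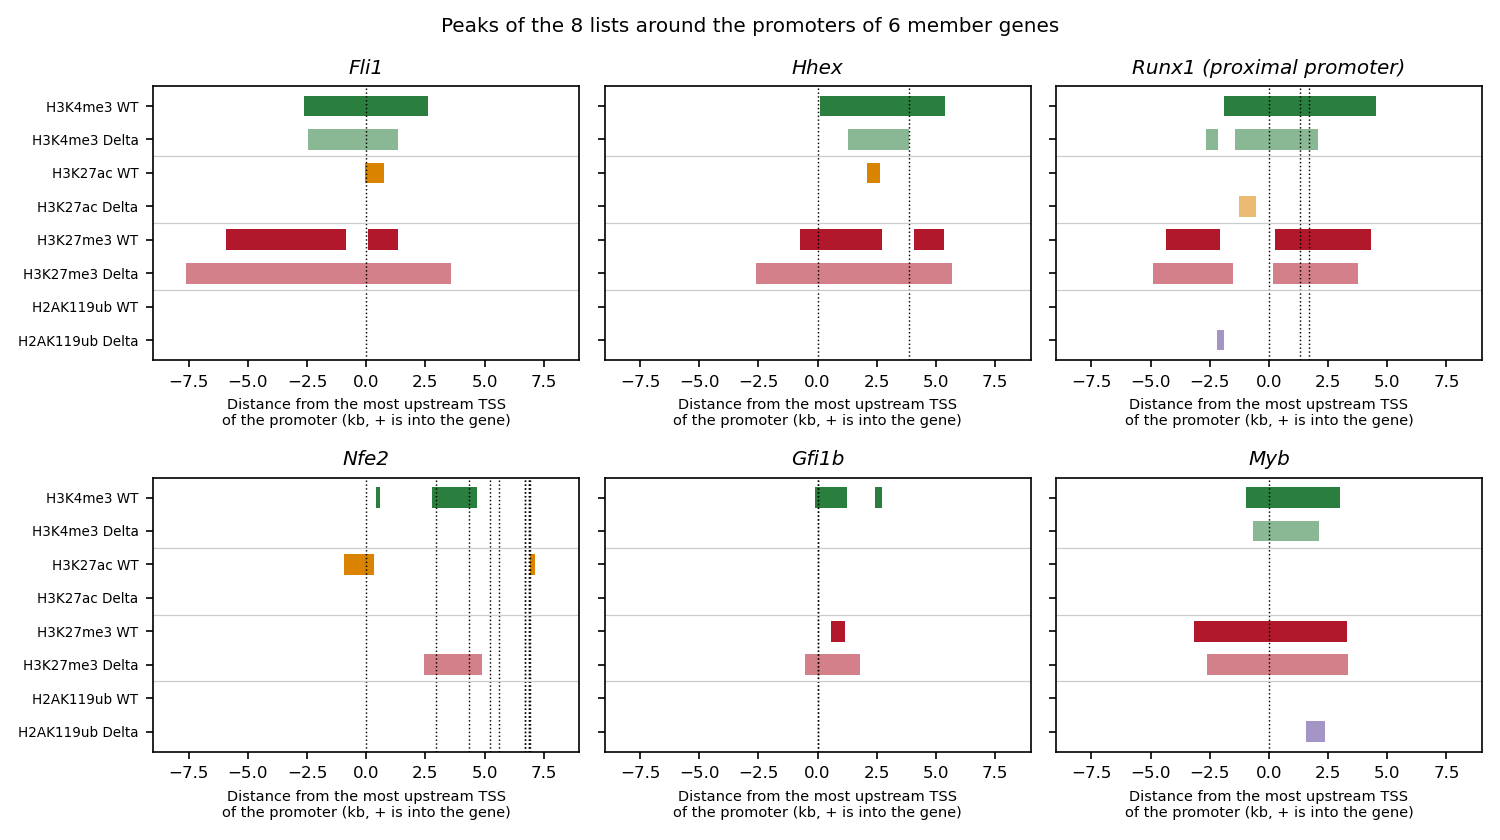
Peaks of the 8 lists around 6 promoters, by distance in kb from the most upstream TSS of each promoter, positive into the gene, with peaks to scale. Full colours are WT, pale colours are Delta and dotted lines are protein-coding TSSs. In Delta 1 H3K27me3 bar fills the WT gap at Fli1 and Hhex, the gap remains at Runx1, and at Nfe2 the H3K27me3 bar of Delta lies where WT has H3K4me3.

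Hhex, a homeobox factor of haematopoietic and endothelial precursors that also functions in endoderm, lies on chromosome 19 at 37507377 to 37515218 on the plus strand with 2 TSSs. It resembled Fli1. H3K27me3 in WT formed peaks of 3452 and 1290 bp around a gap of 1353 bp, from 1149 bp upstream to 203 bp downstream of the second TSS, while in Delta a single peak of 8267 bp covered both TSSs. H3K4me3 measured 5251 bp in WT, where it filled the gap, and 2564 bp in Delta. Its overlap with H3K27me3 was 73.7% in WT and 100% in Delta. H3K27ac was called in WT only, 545 bp long and 1233 bp upstream of the second TSS, wholly inside the longer H3K27me3 peak. Whether the 2 marks at Fli1 and Hhex in WT were on the same chromosomes or in different cells cannot be read from bulk lists. The promoter at the second TSS (chr19:37510979-37511278, plus strand), the TSS nearest to that H3K27ac peak, is shown.
Hhex second promoter: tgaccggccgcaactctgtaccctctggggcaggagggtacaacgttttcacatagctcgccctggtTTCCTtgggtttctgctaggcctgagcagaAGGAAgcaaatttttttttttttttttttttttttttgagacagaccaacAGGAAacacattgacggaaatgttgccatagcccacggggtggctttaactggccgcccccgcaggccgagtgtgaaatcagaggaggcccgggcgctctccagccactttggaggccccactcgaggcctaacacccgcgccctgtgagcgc

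Myb and Ikzf1, regulators of progenitor expansion and lymphoid development, were bivalent in both genotypes. At Myb (chromosome 10, 20844736 to 20880790, minus strand), H3K4me3 measured 3955 bp (WT) and 2815 bp (Delta) and lay wholly within H3K27me3 in both. H3K27me3 was 6452 bp long in WT and 5972 bp in Delta, but its fold enrichment was 4.90 in WT and 7.61 in Delta, above 74.5% and 91.7% of the respective lists. An 808-bp H2AK119ub peak starting 1573 bp downstream of the TSS was called in Delta alone. It stood above 95.5% of the Delta H2AK119ub list, and the nearest WT peak was 990 kb away. Ikzf1 (chromosome 11, 11585006 to 11672929, plus strand) was the only gene with H2AK119ub at a TSS in both genotypes, 423 bp in WT and 239 bp in Delta. Its H3K4me3 measured 2728 bp (WT) and 1676 bp (Delta), and its H3K27me3 4846 bp in WT and 5700 bp in Delta. Its second promoter had no peak. The lincRNA Gm11999 overlaps the upstream end of Ikzf1 on the other strand, with its 5′ end inside the WT H2AK119ub peak. Neither Myb nor Ikzf1 had H3K27ac. The Myb promoter (chr10:20880741-20881040, minus strand) is shown because its H2AK119ub call differed between the genotypes.
Myb promoter: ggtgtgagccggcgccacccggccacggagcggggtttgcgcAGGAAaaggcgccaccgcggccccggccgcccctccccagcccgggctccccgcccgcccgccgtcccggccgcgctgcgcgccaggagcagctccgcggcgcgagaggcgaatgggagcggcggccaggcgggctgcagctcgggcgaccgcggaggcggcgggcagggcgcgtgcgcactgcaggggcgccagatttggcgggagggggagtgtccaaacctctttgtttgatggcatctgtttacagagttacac

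The promoters with and without H3K27me3 differed in CpG content, but nearly the same split separates promoters with and without H3K4me3. Of the 16 separate promoters of these genes, 9 had H3K27me3 in at least 1 genotype and 7 had none. All 9 also had H3K4me3 in at least 1 genotype, and of the 7 only the internal Erg promoter did. The split can therefore not be read as one of Polycomb marks alone. The highest observed-over-expected CpG ratio among the TSSs of a promoter ran from 0.397 (Nfe2) to 1.11 (Etv6), median 0.941, in the first set, and from 0.145 to 0.476, median 0.261, in the second. The first set held 30 TSSs and the second 9, so its highest values were drawn from more windows, but the promoters of Erg (most upstream) and Myb in the first set, each with a single TSS, had ratios of 0.941 and 0.952. The median over 45986 protein-coding promoters was 0.549, with each TSS taken singly and not as the highest of a promoter. Within genes, the proximal Runx1 promoter shown reached 1.01 and the distal one 0.176, and the most upstream Erg promoter 0.941 and the internal one, with its WT-only marks, 0.380.

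Motifs were searched on both strands of the 300-base promoters. The E-box (CANNTG) occurred in 69.2% of all protein-coding promoters. The GATA motif, which is AGATAA or one of its forms that begin with T or end in G, occurred in 25.5%. The core bound by ETS factors (AGGAA) occurred in 63.9%, and the core bound by RUNX factors (TGTGGT) in 14.8%. The composite, CTG followed after 7 or 8 bases by GATAA, occurred in 1.22% and can share its last 5 letters with a GATA match. Of the 6 promoters shown, each held at least 1 ETS core, a GATA match occurred in Erg and Nfe2, an E-box in Erg and Myb, and a RUNX core or the composite in none. Both promoters with a GATA match had H3K27ac called in WT alone, as did Hhex, which had no GATA match. A match is a run of letters and not evidence of binding.

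The same search was run over the H3K27ac peaks, as a description of 9 WT peaks at these genes beside all 4571 WT peaks. GATA matches occurred at 1.96 per kb in the 9 peaks and 0.738 per kb in the whole list, E-boxes at 3.93 and 3.10 per kb, and ETS cores at 4.42 and 3.12 per kb. RUNX cores had a single match, 1 in the 9 peaks, at 0.164 beside 0.397 per kb. Of the 12 GATA matches, 6 lay in the 1709-bp intronic peak of Erg and 4 in the 1269-bp peak of Nfe2. The composite occurred once in each of those 2 peaks, 2 of 9, beside 2.49% of the WT list, and both peaks are longer than the list's median of 541 bp. The 2 Delta peaks, at Runx1 and Etv6, held none, beside 1.59% of the Delta list. The composites are shown in capitals with 20 bases on each side, at chr16:95661629-95661684 and chr15:103089055-103089110, both on the minus strand.
Erg intronic H3K27ac peak: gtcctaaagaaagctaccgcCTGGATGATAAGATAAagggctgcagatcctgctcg
Nfe2 upstream H3K27ac peak: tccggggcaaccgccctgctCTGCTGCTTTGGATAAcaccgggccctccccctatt

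Other genes of the blood programme were taken from a list of 20 regulators, all of which were matched, Spi1 under its older symbol Sfpi1. H3K27ac was called at a TSS of 10 of them in WT and 4 in Delta, with 6 in WT alone (Tal1, Lyl1, Lmo2, Gata2, Cbfa2t3 and Spi1) and none in Delta alone. H3K4me3 was shorter in Delta at 17 of the 18 genes with a peak in both, with a median ratio of 0.798. H3K27me3 was longer in Delta at 9 of 14 genes, with a median ratio of 1.05. The H2AK119ub call differed at Mecom, called in WT alone, and Cebpa, called in Delta alone. Tal1 is the targeted gene, so its lengths also reflect the altered locus. Of 16 cardiac and paraxial genes, H3K27ac was called at none in WT and at Hand1 and Tbx20 in Delta, both of which, with Isl1, had H2AK119ub at a TSS in WT alone. Their H3K4me3 was shorter in Delta at 6 and longer at 7 of 13 genes, with a median ratio of 1.07, beside 0.622 for the 8 blood factors above.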

How the data were processed

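Histone marks were profiled by ChIP-seq with spiked-in Drosophila S2 chromatin (ChIP-Rx) in sorted day 4 cells. The authors trimmed reads with Trim Galore, aligned them to mm9 and dm3 with Bowtie, removed duplicates with SAMtools and called broad peaks with MACS2 2.0.10 against the input of the same genotype, per the submitters' notes and the study's methods, at 1 library per mark and genotype. Spike-in scaling was applied to signal tracks, which were not used here, and not to the peak calls. For each peak the deposited lists give a score (within 1 unit of 10 times −log10 q in every peak), the fold enrichment over input as a ratio, and −log10 p and −log10 q values. Read depth is not given in the lists. The study's reporting summary gives mapped reads per library, which were not used here. Strain labels read C57Bl/6 X Sv129 in 3 libraries and end in numbers from Sv130 to Sv136 in the others, one each.

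Peaks were assigned with Python 3.11.15 to genes on placed nuclear chromosomes when they overlapped by 1 bp the 2500 bp on either side of a protein-coding TSS (a call at a TSS), or that window or the gene body (a locus). Windows that overlapped were joined into 1 promoter. Locus length is the sum of whole peaks, not only of the part inside the window. Promoter sequences run from 250 bases before to 50 after the TSS in the mm9 genome. The script was tested on simulated peaks and motifs. All 10 genes with every peak at them, and from the lists of other blood and of cardiac and paraxial genes those whose H3K27ac or H2AK119ub call differed were named. Promoters were shown for genes whose H3K27ac or H2AK119ub call differed, with 1 contrast. One such promoter sequence is not reported here. The genes and lists were chosen with earlier results of these data known. The comparison of peaks that span 2 others, the shares of all genes by rank and the motif search in H3K27ac peaks were added after the values were seen. Alternatives changed the window, the q and fold-enrichment limits, peak joining, the overlap rule, the transcripts used and the list sizes.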

Additional observations from a re-analysis of the deposited data

How the results depend on the processing

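Each group held 1 library, so no paired analysis could be made and no result comes from a test. Of 95 values of the counts at a TSS and the summed length ratios under 8 alternatives, 87 stayed within 1.5 times of the reported value and none reversed. The 8 that moved were small counts of H2AK119ub, 1 count of H3K27ac and 1 length ratio of H2AK119ub. With −log10 q of at least 3, no gene had H2AK119ub at a TSS (0 in WT, 0 in Delta) and its length ratio could not be given, and H3K27ac in Delta was called at 1 gene, Etv6, since the Runx1 peak did not pass. H3K27ac in WT remained at 5 genes there. At that limit 6 WT and 7 Delta genes had H3K27me3 at a TSS, without the Gfi1b and Etv6 peaks of WT, the Nfe2 peak of Delta and the shorter WT peaks of Fli1 and Hhex. Within 1000 bp of a TSS, H2AK119ub in Delta was called at 1 gene. In WT it was called at 2 genes within 5000 bp or with the TSSs of all transcripts, which bring in Gfi1, and at 0 genes with lists of equal size within a mark. With peaks joined within 3000 bp, the H2AK119ub length ratio was 0.846. H3K4me3 was shorter in Delta at every gene with a peak in both genotypes under each alternative, 8 of 8 or, at −log10 q of at least 3, 7 of 7, beside 66.8% to 67.6% of all genes. H3K27me3 was longer in Delta at 6 of 8 genes, or 5 of 7 at that limit, beside 51.1% to 54.1% of all genes. Of 120 length ratios of single genes, none reversed and 3 moved. The log2 ratio became -0.41 for H2AK119ub at Gfi1 with joined peaks and, with peaks counted by their midpoint, -3.20 for H3K4me3 at Gfi1 and 3.12 for H3K27me3 at Fli1, where the midpoint of a peak leaves the window. Of 51 ranks, 9 moved by over 10 percentage points when taken by −log10 q, all for H3K27ac or H2AK119ub, and the numbers of genes higher and lower in Delta were the same by both measures. Peak lists hold no value for sites below the calling limit, so an absent call may lie just under it.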

Other observations

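H2AK119ub also lay within the H3K27me3 peaks of Fli1 and Gfi1 outside the windows and gene bodies used above. Upstream of Fli1, WT had peaks of 764 and 1026 bp that began 3437 and 5058 bp from the TSS, and Delta had a single peak of 688 bp that began 4374 bp from it. The 1026-bp peak had a fold enrichment above 94.7% of the WT list, and the Delta peak above 22.7% of its list. Upstream of Gfi1, which had no TSS window, Delta had a further peak of 595 bp that began 1581 bp from the annotated 5′ end.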
